A study of Mus musculus with 2 samples.

Results

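Hemoglobin-rich late erythroid cells of the spleen were taken from single-cell RNA-seq of PEP-WT and PEP-619WW mice, 8 days after infection with the chronic virus LCMV-cl13. They were chosen by measured values: a barcode, the tag of 1 droplet, was a member if *Hba-a1*, *Hba-a2*, *Hbb-bs* and *Hbb-bt* together made up at least 20% of its UMIs and it held no UMI of *Cd3e* (a T cell gene) or *Cd79a* (a B cell gene). A UMI is a molecular tag that counts 1 captured RNA molecule. The rule found 506 members among 14821 barcodes of the PEP-WT library and 25 among 8576 of the PEP-619WW library, 531 of 23397 in all.

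Both genotypes were C57BL/6 mice, and all of the mice behind these libraries were infected. PEP-WT mice carried the wild type allele of *Ptpn22*, a phosphatase gene of immune cells, and PEP-619WW mice carried its pro autoimmune alternative allele, which changes the protein in all cells and cannot be read from 3′ counts. Splenocytes of 4 to 5 age and sex matched mice were pooled for each genotype and sorted as live cells with CD45 on the surface, so each genotype was 1 library, no test of genotype was possible, and genotype, pool, sort and library cannot be told apart. Intervals given here cover counting error only. The sample labels name liver, Jurkat cells and tumor infiltrating cells, whereas the design text and the methods name spleen. None of 5 hepatocyte markers had a UMI in any member, and the other barcodes of each library held 1. Since the sort chose cells with CD45, these markers cannot tell which organ was used. A second set of counts per genotype, called run 2 here, was not used for the main values, although its barcode numbers are the cell numbers in the methods. The sources used here do not state how the runs relate: PEP-WT run 1 and run 2 shared 38 barcodes and no member, as against 39 barcodes between the genotypes of run 1.

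Late erythroid cells fill with hemoglobin, a tetramer of α and β globin chains with heme, while they stop dividing, expel the nucleus and degrade ribosomes, mitochondria and other organelles. What remains is a reticulocyte, whose RNA is largely globin mRNA. In the adult mouse this takes place in bone marrow and in the spleen, where erythropoiesis expands under stress such as infection.

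The 4 globins together held 72.3% of the summed UMIs of PEP-WT members and 48.9% of those of PEP-619WW members. In PEP-WT members *Hbb-bs* (GRCm38 chr7:103826534-103828096, minus strand) held 43.7% of all UMIs, *Hbb-bt* 11.02%, *Hba-a1* 10.1% and *Hba-a2* 7.41%, and in PEP-619WW members the same genes held 28.4%, 7.87%, 7.74% and 4.88%. The α and the β genes are each a pair of near-identical copies, so their split within a pair is uncertain. The α share of globin UMIs had a median of 24.2% over PEP-WT members and 24.7% over PEP-619WW members. The embryonic genes *Hbb-bh1*, *Hbb-bh2* and *Hba-x* had no UMI in members, and *Hbb-y* had 1. The minor globin *Hbq1b* had 57 UMIs in PEP-WT members and 8 in PEP-619WW members.

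**Figure D1:**
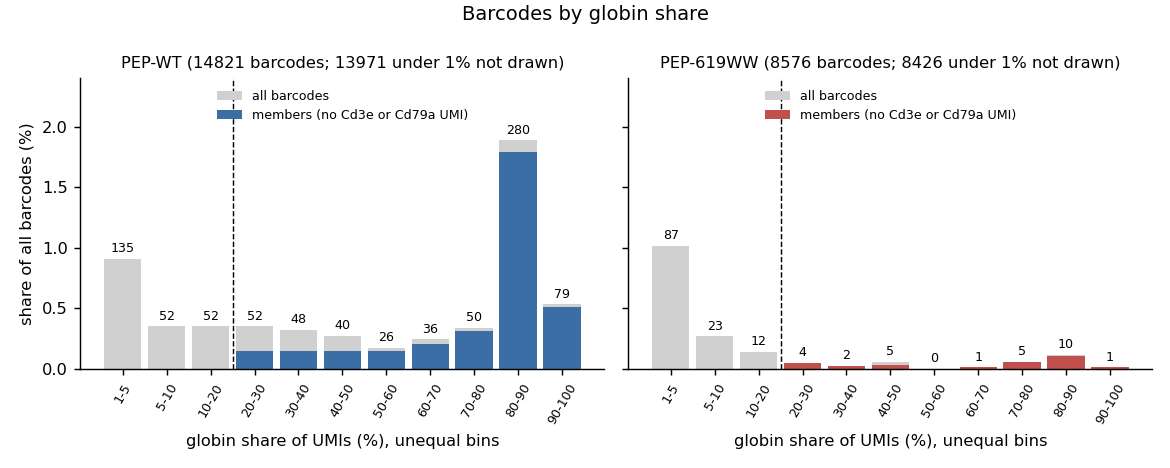
Share of all barcodes of each library (y axis, %) by the share of UMIs from the 4 globins (x axis, %, unequal bins), with barcode numbers above the bars; grey bars are all barcodes, coloured bars are members, and the dashed line marks 20%. PEP-WT has a peak of 280 barcodes at 80 to 90%, where PEP-619WW has 10.

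Globin shares of members ran from 20.1% to 95.1% in PEP-WT (median 85.4%) and from 21.7% to 92.4% in PEP-619WW (median 76.1%). In PEP-WT the members just inside the limit had 20.1%, 20.1% and 21.2% globin, and the barcodes just outside it had 19.6%, 19.0% and 18.7%. In PEP-619WW the nearest values were 21.7% and 23.2% inside and 18.4% and 17.2% outside. The bins on both sides of the limit, 10 to 20% and 20 to 30%, held 52 and 52 barcodes in PEP-WT and 12 and 4 in PEP-619WW. Of the PEP-WT members, 342 (67.6%, exact binomial interval 63.3 to 71.7%) had at least 80% globin, against 10 of 25 in PEP-619WW (40%, 21.1 to 61.3%).

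Most members held little other RNA. Members had a median of 1803 UMIs in PEP-WT (506 to 10842) and 2313 in PEP-619WW (556 to 19977), but a median of only 260.5 and 443 outside the 4 globins. Among members at 20 to 40% globin these last medians were 1693 and 5764. The median number of genes over all members was 141.5 and 179, against 1168 and 1299 in the other barcodes of the same libraries. With every barcode thinned to 500 UMIs, which kept all barcodes, members had a median of 56 and 91 genes and the other barcodes 322 and 319. *Ptprc*, which codes for the CD45 of the sort, had a UMI in 4.94% of PEP-WT members and 8.00% of PEP-619WW members, against 75.5% and 71.1% of the other barcodes. At 500 UMIs these shares were 1.58% and 4.00% against 27.4% and 25.3%. They were 4.09% and 3.70% in the hemoglobin-poor erythroid barcodes defined below. The 500 UMIs include the 4 globins of the rule, so members kept fewer UMIs of other genes. A protocol in the labels includes a red blood cell lysis, and it is not stated whether the sorted cells went through it.

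**Figure D2:**
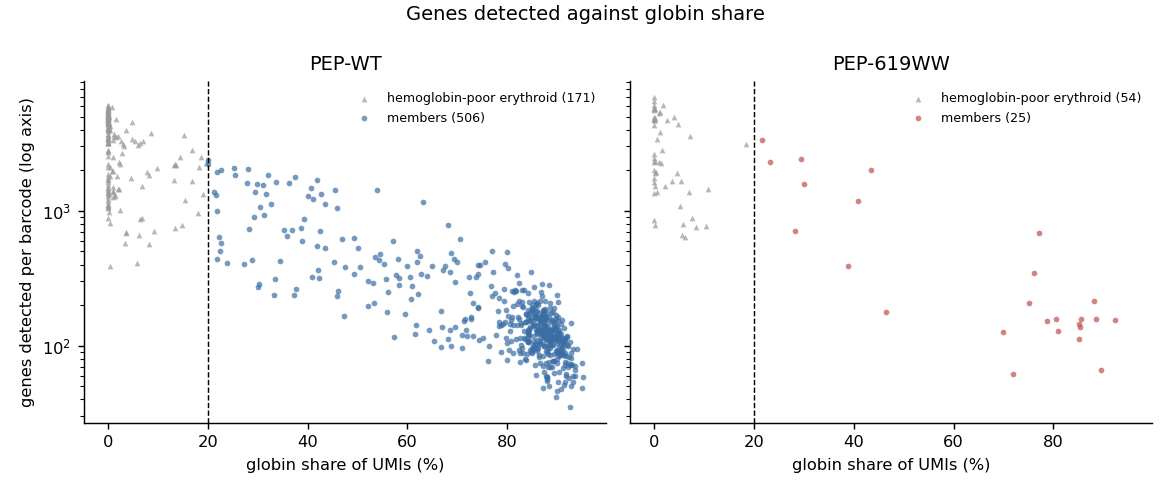
Genes detected per barcode (y axis, log scale) against the globin share of its UMIs (x axis, %), for members (circles) and hemoglobin-poor erythroid barcodes (triangles) in each library; the dashed line marks 20%. Gene numbers fall with globin share, and the PEP-WT cloud at 80% or more has a median of 121 genes.

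The share of barcodes that were members was 3.41% in PEP-WT (exact binomial interval 3.13 to 3.72%) and 0.292% in PEP-619WW (0.189 to 0.430%). The difference, PEP-619WW minus PEP-WT, was -3.12 percentage points (Newcombe interval -3.44 to -2.81), and the PEP-WT share was 11.7-fold higher (7.84 to 18.3). Hemoglobin-poor erythroid barcodes, with under 20% globin, no *Cd3e* or *Cd79a* UMI and UMIs of at least 3 of 8 erythroid genes, numbered 171 in PEP-WT (1.15%) and 54 in PEP-619WW (0.630%), 1.83-fold apart (1.34 to 2.54). They were deep, with medians of 13153 and 8076 UMIs, and nearly free of globin, with medians of 0.0673% and 0.444%, and a rule that asks for UMIs of several genes depends on depth. Members were 74.7% of members and hemoglobin-poor erythroid barcodes together in PEP-WT (71.3 to 78.0%) and 31.6% in PEP-619WW (21.6 to 43.1%). Globin UMIs outside members moved with the member number: 60.3% of the other PEP-WT barcodes held a globin UMI, against 26.0% in PEP-619WW. The other barcodes include the hemoglobin-poor erythroid ones, and the part of free globin RNA in these values and in the shares was not tested. Without the condition on *Cd3e* and *Cd79a* the libraries held 611 and 28 such barcodes. The libraries shared 39 barcodes, none of them a member in both.

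Levels are given as CPM, here the summed UMIs of a gene per 1000000 UMIs outside the 4 globins. Genes were compared where members of both libraries together had at least 100 UMIs, which 489 genes passed, so a gene that is low in members could not be compared. Of these, 219 (44.8%) were at least 2-fold higher in members than in the other barcodes of the same library, in both libraries, and 28 (5.73%) at least 2-fold lower. Since the rule chose the barcodes, this contrast is a description. The 12 genes with the largest ratio in both libraries included *Alas2*, *Slfn14*, *Apol11a*, *Apol11b*, *Tmcc2*, *Trim10*, *Slc4a1*, *Epb42*, *Sox6* and *Fam213a*. *Alas2*, the erythroid enzyme of the first step of heme synthesis (chrX:150547375-150570638, plus strand), stood at 6251 CPM in PEP-WT members and 2403 in PEP-619WW members, and at 9.72 and 2.17 in the other barcodes. *Apol11b* (chr15:77633946-77643286, minus strand) stood at 6346 and 3449 in members and at 14.5 and 4.17 elsewhere. These leading genes included *Slc4a1* (the band 3 anion exchanger) and *Epb42* (protein 4.2), parts of the red cell membrane, so they fitted the erythroid name that the globins gave.

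The highest gene outside the globins in both libraries was *Gm42418*, at 83024 in PEP-WT members and 40045 in PEP-619WW members. It lies over ribosomal RNA repeats, as does *AY036118* (10871 and 4714). *Gpx1*, which removes peroxides, stood at 10695 and 5980. *Malat1*, a nuclear RNA, stood at 10566 and 10126, but a UMI of it was found in 42.1% of PEP-WT members, against 94.8% of the other barcodes. The ubiquitin genes *Mkrn1*, a ligase (8079.5 and 2440), and *Ubb*, a polyubiquitin gene (7347 and 3008), and the interferon-stimulated *Isg15* (8300 and 2715) were also among the 20 highest, as were *Fth1*, *Prdx2*, *H3f3a*, *Tmsb4x*, *Tpt1*, *Rpl41*, *Rpl13* and 3 mitochondrial genes. The neutrophil genes *S100a8* and *S100a9* were also among them, with 99.2% of their PEP-619WW UMIs in 1 barcode. Neutrophil markers took 0.823% of the UMIs outside globin in PEP-WT members and 3.15% in PEP-619WW members, against 0.610% and 1.09% in the other barcodes. Of the other cell types, the T cell, B cell, NK cell, dendritic cell and macrophage lists each took under 0.1% of the UMIs outside globin. In that order they took 0.0628%, 0.0126%, 0.0356%, 0.00373% and 0.0926% in PEP-WT members, against 0.129%, 0.144%, 0.0590%, 0.00408% and 0.204% in the other barcodes. In PEP-619WW members they took 0.0128%, 0.00734%, 0.00367%, 0% and 0.0532%, against 0.123%, 0.108%, 0.0489%, 0.00452% and 0.217%. Basophil markers had none. Plasma cell markers took 0.694% in PEP-WT and 0.292% in PEP-619WW members against 5.88% and 8.27% in the other barcodes. No UMI of the T cell, B cell, neutrophil, macrophage, NK cell or dendritic cell lists was found in 266 of 506 PEP-WT members and 9 of 25 PEP-619WW members. Plasma cell markers had a UMI in 474 PEP-WT members and in all 25 PEP-619WW members.

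Promoter sequences are shown for *Hbb-bs*, for leading genes with a GATA or paired GAAA motif, and for *Isg15* and *Rsad2* of the interferon-stimulated genes. The sequences are RefSeq's for GRCm38.p6, lie within the 250 bases before an annotated start, and were found for 8 of the 12 leading genes. The GATA motif AGATAA, searched on both strands in the 250 bases before each start, was in 5 of these 8 (*Alas2*, *Epb42*, *Sox6*, *Tmcc2* and *Trim10*) and, counted by window, in 5 of their 15 windows (33.3%), against 9.99% of 32851 windows of all genes. The CACCC motif CCACACCC was in 3.20% of all windows, and in that of *Hbb-bs*. The paired GAAA motif (GAAA, any 2 bases, GAAA), which is part of the element bound by interferon-activated factors, was in 2.98% of all windows and in 2 of the 15 windows of leading genes, those of *Apol11a* and *Apol11b*. Capitals mark the motif, which reads as its reverse complement in all but the *Hbb-bs*, *Sox6* and *Isg15* lines.
Hbb-bs, chr7:103828004-103828033, minus strand, inside an annotated exon of the gene: gattccgtagagCCACACCCtggtaagggc
Alas2, chrX:150547319-150547348, plus strand: ctactttgctttTTATCTttagcagaggcc
Epb42, chr2:121037086-121037115, minus strand: gtctctatttccTTATCTcgttcaaacaga
Sox6, chr7:115846163-115846192, minus strand: tgtgcaaaacaaAGATAAaagctatgtttt
Tmcc2, chr1:132367964-132367993, minus strand: actgggccctccTTATCTcttggaaccttc
Trim10, chr17:36869399-36869428, plus strand: agctcaagagccTTATCTgagtccccacac
Apol11b, chr15:77643287-77643416, minus strand: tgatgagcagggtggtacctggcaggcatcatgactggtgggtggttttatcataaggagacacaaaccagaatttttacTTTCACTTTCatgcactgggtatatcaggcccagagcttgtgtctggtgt
Isg15, chr4:156200819-156200948, minus strand: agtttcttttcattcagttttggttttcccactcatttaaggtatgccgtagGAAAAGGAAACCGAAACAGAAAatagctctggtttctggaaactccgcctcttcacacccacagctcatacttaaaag
Rsad2, chr12:26456453-26456582, minus strand: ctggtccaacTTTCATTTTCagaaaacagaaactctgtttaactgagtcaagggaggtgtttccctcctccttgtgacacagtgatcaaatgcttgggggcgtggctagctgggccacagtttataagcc

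The paired GAAA motif lay 50 to 41 bases before the *Apol11b* start, 3 times overlapping between 78 and 57 bases before the *Isg15* start and 120 to 111 bases before the *Rsad2* start. The 250 bases before *Apol11a* and *Apol11b* were identical, so their matches are 1 sequence, and reads of these 2 neighbouring genes may be split uncertainly. In the list of 17 interferon-stimulated genes the motif was in 3 of the 7 genes called higher in members (*Ifit1*, *Isg15* and *Rsad2*). It was also in *Bst2*, which was compared and not called higher, and in *Ifit3*, *Ifit3b* and *Oas1a*, which had too few UMIs to be compared.

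Of the interferon-stimulated genes, 10 were compared. In both libraries 7 were at least 2-fold higher in members than in the other barcodes (*Isg15*, *Rsad2*, *Isg20*, *Irf7*, *Ifit1*, *Oasl2* and *Ifitm3*) and *Ifi27l2a* was lower, where 44.8% of all genes compared were higher by the same rule. The median log2 ratio of the list was 2.26 in PEP-WT and 1.85 in PEP-619WW, against 0.73 and 0.93 over all genes compared. *Rsad2*, which codes for the antiviral protein viperin, stood at 4901 in PEP-WT members and 67.6 in the other barcodes, and at 2018 and 37.5 in PEP-619WW. *Isg15*, a ubiquitin-like protein, stood at 8300 and 446 in PEP-WT and at 2715 and 169 in PEP-619WW. *Ifi27l2a* stood at 848 in PEP-WT members and 2670 in the other barcodes. Hemoglobin-poor erythroid barcodes held less *Rsad2* (70.1 in PEP-WT and 34.9 in PEP-619WW) and *Isg15* (871 and 486) than members.

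**Figure D3:**
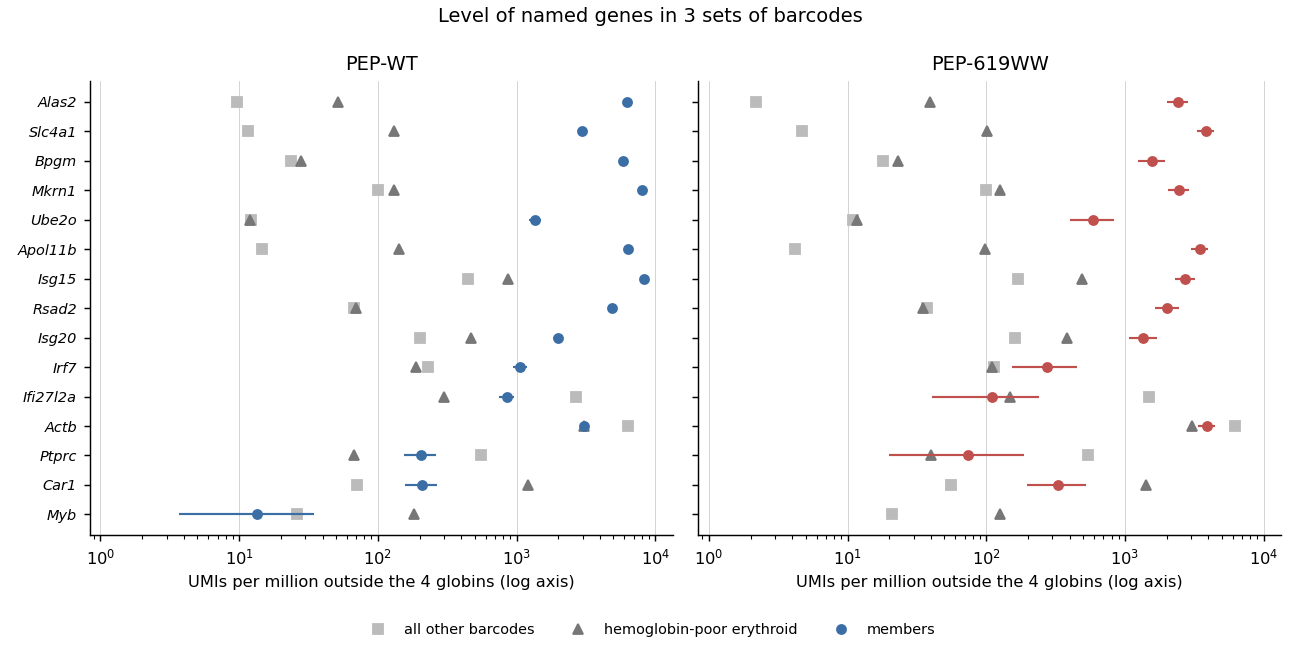
Level of 15 genes (x axis, CPM outside the 4 globins, log scale) in members (circles, with exact Poisson 95% intervals), hemoglobin-poor erythroid barcodes (triangles) and all other barcodes (squares) of each library; a level of 0 is not drawn. *Alas2* to *Isg20* lie to the right of both other sets in both libraries, while *Actb* and *Ptprc* lie to the left of the other barcodes.

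At the level of single members, at least 1 UMI of the interferon list was found in 458 of 506 PEP-WT members and 22 of 25 PEP-619WW members. *Isg15* UMIs were found in 67.8% of PEP-WT members and in 45.6% of the other, deeper barcodes, *Rsad2* UMIs in 68.4% and 14.96%, and *Apol11b* UMIs in 74.7% and 2.19%. Among PEP-WT members at 60% globin or more the list took 0 to 18.7% of the UMIs outside globin (median 2.08%), and among PEP-619WW members 0 to 6.86% (median 2.30%).

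The lists for red cell biology were high together in members against the other barcodes. All compared genes were at least 2-fold higher in both libraries for heme synthesis (6 compared of 8 listed), iron supply (6 of 10), red cell membrane and skeleton (13 of 18), gas transport and redox (6 of 10) and erythroid transcription factors (3 of 11). For reticulocyte clearance and survival it was 7 of the 8 compared of 12 listed. Of all genes compared, 44.8% were higher by the same rule. The cell cycle list was also higher in members, in 8 of its 11 compared genes. It took 1.00% of the UMIs outside globin in PEP-WT members and 1.64% in PEP-619WW members. In the other barcodes it took 0.347% and 0.319%, and in the hemoglobin-poor erythroid ones 0.832% and 0.860%. A UMI of it was found in 37.2% of PEP-WT members and 44% of PEP-619WW members. *Fech*, the enzyme that inserts iron into protoporphyrin to form heme, stood at 1750 in PEP-WT members and 18.7 elsewhere. *Slc25a37* (mitoferrin, the mitochondrial iron importer) stood at 2110 and 30.1. *Bpgm*, whose product lowers the oxygen affinity of hemoglobin, stood at 5868 and 23.6. *Ube2o*, a ubiquitin enzyme that clears ribosomes in reticulocytes, stood at 1350 and 12.2, and *Bnip3l*, the receptor for removal of mitochondria, at 2493 and 78.9.

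Against the hemoglobin-poor erythroid barcodes, 195 genes (39.9%) were at least 2-fold higher in members of both libraries and 27 (5.52%) lower. Of those lower, 13 were ribosomal protein genes by symbol, which were 80 of the 489 genes compared. All 8 compared clearance genes were higher. *Car1*, an early carbonic anhydrase, stood at 207 in PEP-WT members and 1212 in hemoglobin-poor barcodes, whereas *Car2* stood at 4223 and 1930. *Kit*, *Gata2* and *Cd34*, genes of progenitors, had no UMI in members, and *Myb* had 4 in PEP-WT members, which stood at 13.6 against 182 in the hemoglobin-poor barcodes. These are part of a list of 8 early erythroid and progenitor genes, all with too few UMIs to be compared. The list had 112 UMIs in 65 PEP-WT members and 29 in 6 PEP-619WW members. It took 0.0380% of the UMIs outside globin in PEP-WT members against 0.0713% in hemoglobin-poor barcodes, and 0.0532% against 0.0651% in PEP-619WW.

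Composition changed with the globin share, which the rule measured, so the bins are described only. From 20 to 40% to at least 80% globin, ribosomal protein genes went from 22.0% to 8.60% of the other UMIs in PEP-WT members and cell cycle genes from 1.61% to 0.106%. Over the same bins the clearance list went from 0.416% to 3.91%, the gas and redox list from 1.91% to 5.32%, heme synthesis from 0.650% to 2.00% and interferon-stimulated genes from 1.24% to 3.29%. *Alas2* went from 1202 through 2730 and 6744 to 15832 CPM, and *Bpgm* from 474 through 1661 and 6249 to 16456. *Tfrc*, the transferrin receptor, stood at 1079, 1661, 989 and 110 and *Klf1*, an erythroid transcription factor, went from 474 to 0. *Malat1* stood at 9019, 19874, 22002 and 1542. *Apol11b* was at 2461, 4907, 10311 and 11219, *Rsad2* at 1447, 4391, 7655 and 9103 and *Isg15* at 4628, 6816, 11352 and 13311 over the 4 bins.

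**Figure D4:**
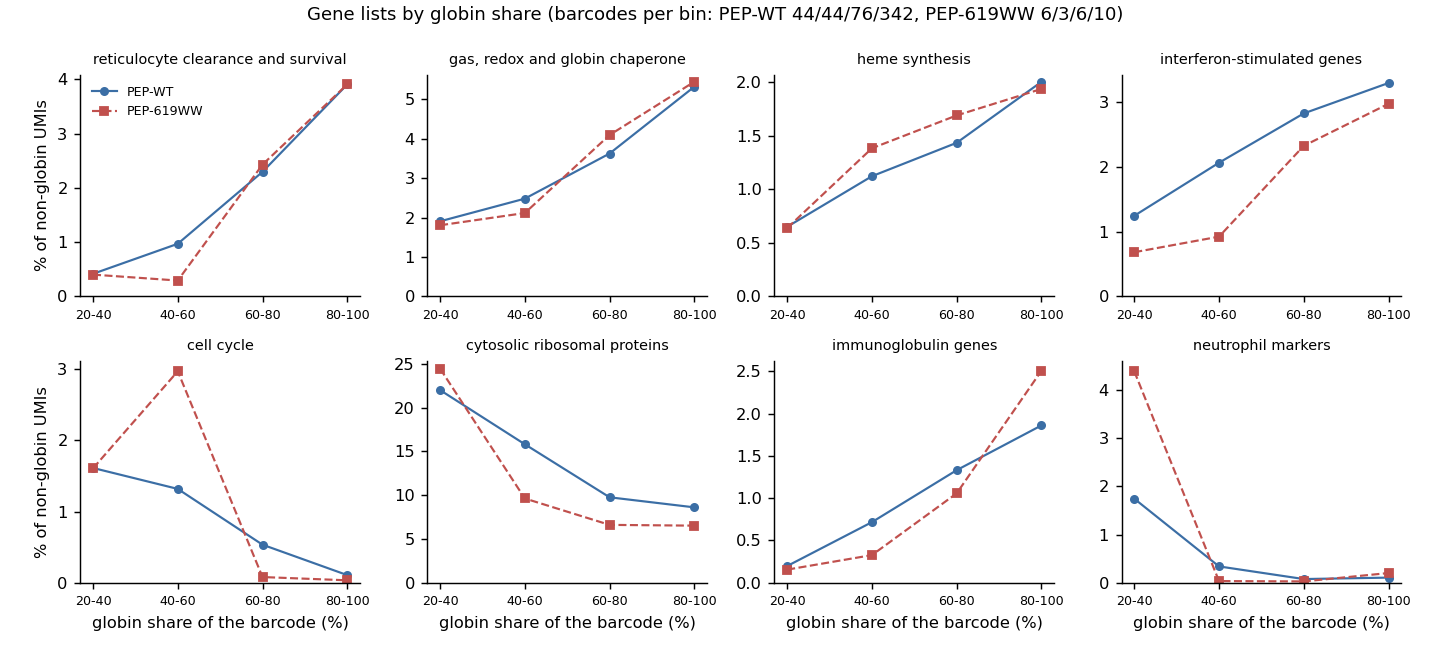
Share of the UMIs outside the 4 globins (y axis, %, from 0) taken by 8 gene lists in 4 bins of globin share (x axis, %), for PEP-WT (circles) and PEP-619WW (squares); the PEP-619WW bins hold 6, 3, 6 and 10 barcodes. Clearance, gas and redox, heme and interferon lists are higher at higher globin, while ribosomal protein and cell cycle lists are lower.

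The bins also differed in depth outside globin, with medians of 1693, 793, 373.5 and 209.5 UMIs, and immunoglobulin genes, which erythroid cells do not make, went from 0.197% to 1.86%. The part of free RNA in these changes was not tested. Thinning PEP-WT members to 300 UMIs outside globin left out 4 of 44 at 40 to 60%, 34 of 76 at 60 to 80% and 263 of the 342 at 80% or more. Among those kept, *Rsad2* was found in 31.8%, 62.5%, 76.2% and 86.1% of PEP-WT members over the bins and *Alas2* in 40.9%, 65.0%, 88.1% and 100%. *Mki67*, a gene of dividing cells, was found in 38.6%, 40%, 16.7% and 3.797%. *Igkc*, an immunoglobulin gene, was found in 50%, 60%, 66.7% and 87.3% of the same thinned members. Thinned to 100 UMIs, which kept 310 of the 342, *Rsad2* was found in 11.4%, 38.6%, 51.3% and 49.4%. The PEP-619WW bins each held under 20 barcodes. In them the clearance list was at 0.402%, 0.292%, 2.43% and 3.91%.

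Between genotypes, 35 of 489 genes (7.16%) were at least 2-fold higher in PEP-619WW members, with an interval that left out no change, and 71 (14.5%) at least 2-fold lower. PEP-WT members held 294820 UMIs outside globin and PEP-619WW members 54514, so a gene high in PEP-WT passed the UMI limit more easily. The balance of the 2 counts depends on the settings. They were 89 and 110 of 949 with genes of at least 50 UMIs, and 233 and 14 of 489 with all UMIs as the denominator. The contrast between genotypes sums few PEP-619WW cells: the 4 PEP-619WW members with the most RNA held 71.1% of that library's member UMIs outside globin and had 21.7 to 43.4% globin. Of the 12 genes furthest higher, *S100a8*, *S100a9*, *Camp*, *Retnlg*, *Lcn2*, *Ngp* and *S100a6* each owed over 80% of their PEP-619WW UMIs to 1 barcode. *S100a8*, a calcium-binding protein of neutrophils, had 711 UMIs in PEP-619WW members, 708 of them in 1 barcode, and 775 in PEP-WT members. Few barcodes carried these genes in PEP-WT too, where 3 of 506 members held 92.3% of the *S100a8* and *S100a9* UMIs. All 5 compared neutrophil markers were higher, the list took 3.15% of the UMIs outside globin against 0.823% in PEP-WT, and without the 4 PEP-619WW members, but with those 3 PEP-WT members kept, the log2 ratio of *S100a8* was -4.37. The others of the 12 included *Hist1h1d*, *Prc1*, *Abcg2* and *Xist*.

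The 12 genes furthest lower in PEP-619WW members were *H2-Eb1*, *H2-Aa*, *Cd74*, *H2-Ab1*, *Ube2r2*, *Ifi27l2a*, *Map1lc3b*, *Iglc1*, *Ccl5*, *Ghitm*, *Slc25a39* and *Plac8*. The first 4 are MHC class II genes and the class II invariant chain. *Cd74* had 243 UMIs in PEP-WT members and 5 in PEP-619WW members, a log2 ratio of -3.17 (-4.80 to -1.93). It was -1.62 (-4.68 to 0.27) at 60% globin or more and -1.85 (-2.28 to -1.45) without the condition on *Cd3e* and *Cd79a*, a B cell gene, where *H2-Eb1* went from -4.60 (131 UMIs against 1, -9.91 to -2.09) to -1.001 (-1.51 to -0.53). The B cell, dendritic cell and macrophage lists each took under 0.1% of the UMIs outside globin in members of either library. The dendritic cell list took only 0.00408% and 0.00452% in the other barcodes too, and the rule had left out barcodes with *Cd79a*. The source of the class II UMIs was not tested. *Map1lc3b*, an autophagy gene, had 589 and 22 UMIs, a log2 ratio of -2.31 (-2.99 to -1.70). Without the 4 PEP-619WW members with the most RNA outside globin, it was -1.39 (-2.35 to -0.58). In that setting *Ube2r2*, *H2-Ab1*, *Iglc1*, *Ghitm* and *Slc25a39* stood at -1.34, -1.21, -1.24, -1.14 and -0.847, with intervals that reached above 0. The intervals of the others of the 12 stayed below 0. Of the lists, 7 of 8 compared clearance genes and 7 of 10 interferon-stimulated genes were lower and none higher, where 14.5% of all genes compared were lower by the same rule. These lists had median log2 ratios of -1.35 and -1.44, against 0.10 over all genes compared.

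Members at 60% globin or more gave another picture. They numbered 418 in PEP-WT and 16 in PEP-619WW, 187 genes passed the UMI limit, and 9 (4.81%) were higher and 10 (5.35%) lower in PEP-619WW. PEP-WT members held 38406 UMIs outside globin at 60 to 80% globin and 81735 at 80% or more, PEP-619WW members 3786 and 2993. With so few PEP-619WW UMIs, a gene that was not called here is not shown to be unchanged. None of the 35 genes called higher and 1 of the 71 called lower among all members was called in the same direction here, where none of the 35 and 48 of the 71 passed the UMI limit. The gene lower in both was *Map1lc3b*, with a log2 ratio of -1.16 (-2.13 to -0.34). The clearance list as a whole had a log2 ratio of -0.14 (-0.35 to 0.06) in place of -1.27 (-1.42 to -1.12), gas and redox -0.03 (-0.19 to 0.14), heme synthesis -0.02 (-0.29 to 0.25) and neutrophil markers 0.11 (-1.24 to 1.198). Cell cycle genes had -2.04 (-3.93 to -0.67) in place of 0.71 (0.60 to 0.82), but with 4 UMIs in PEP-619WW members, 292 in PEP-WT members and no gene of the list past the UMI limit. Immunoglobulin genes had 0.01 in place of -1.26. Interferon-stimulated genes had -0.27 (-0.49 to -0.05) in place of -1.17 (-1.30 to -1.04). Within that list 1 gene was called lower, *Ifitm3*, with 3 UMIs in PEP-619WW members against 171 in PEP-WT (log2 ratio -1.69, -3.98 to -0.11). *Isg15* was lower by less than 2-fold, at 7671 CPM against 12685 in PEP-WT (log2 ratio -0.73, -1.15 to -0.33). *Rsad2* stood at 10916 against 8640 (0.34, -0.02 to 0.68). *Apol11b*, which is not on the list, stood at 9588 against 10929 (-0.19, -0.57 to 0.17). *Isg15* was also lower in the other PEP-619WW barcodes, at 169 against 446.

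**Figure D5:**
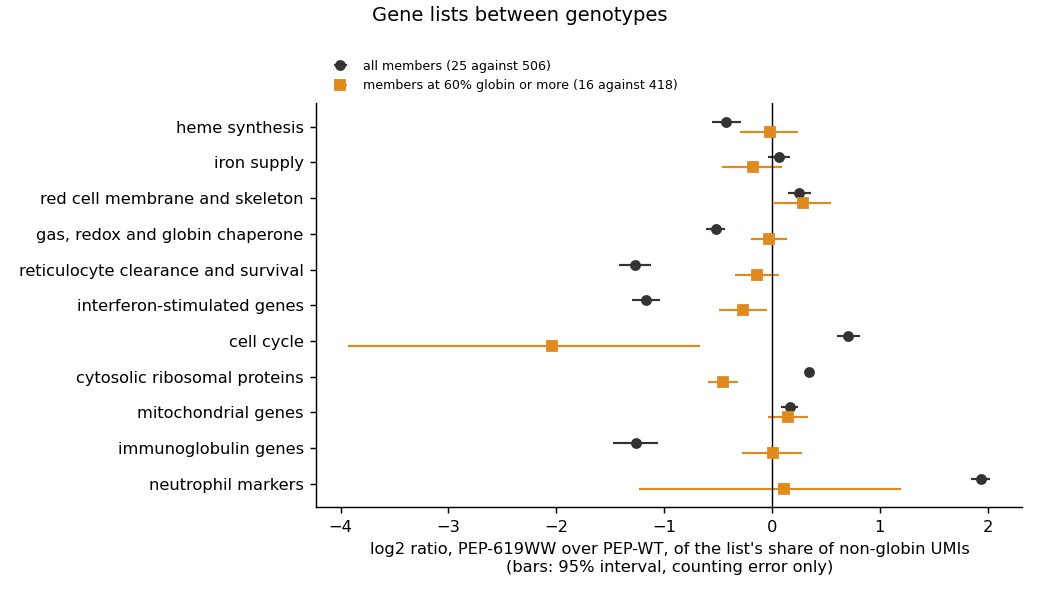
Log2 ratio, PEP-619WW over PEP-WT, of the share of UMIs outside the 4 globins for 11 gene lists (x axis, with 95% intervals for counting error only), for all members (circles) and members at 60% globin or more (squares); the line marks no difference. The clearance list lies at -1.27 for all members and at -0.14 at 60% or more.

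At 60% or more, 5 of the 10 lower genes were ribosomal protein genes by symbol (*Rplp0*, *Rpl18*, *Rplp2*, *Rps24* and *Rps14*), which were 54 of the 187 genes compared. The ribosomal protein list was at 6.56% of the UMIs outside globin against 8.97% in PEP-WT. This was a log2 ratio of -0.45 (-0.59 to -0.31), where it had been 0.35 (0.31 to 0.38) over all members. Lower outside that list were also *Fau*, which codes for a ribosomal protein under another symbol, *Ifitm3*, *Myl6* and *Hagh*. Higher were *Tmcc2*, *Hipk1*, *Bsdc1*, *Tax1bp1*, *Ppp1r15a*, *Specc1*, *Ncoa4* (the receptor for ferritin breakdown), *Azin1* and *Malat1*. How many barcodes carried these differed: *Hipk1* had 14 UMIs in 7 of the 16 PEP-619WW members with at most 3 in any, and *Ncoa4* 11 in 8 with at most 2, whereas *Tmcc2* had 37 UMIs in 4, 23 of them in 1, and *Malat1* had 140 in 8, 54 of them in 1. *Alas2* had a UMI in all 16, at 11506 CPM against 12926 in PEP-WT (log2 ratio -0.17, -0.51 to 0.16).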

How the data were processed

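The authors made the deposited UMI counts of each gene in each barcode from 3′ single-cell libraries with Cell Ranger and the mm10 transcriptome. The processing notes name version 6.0.0 and the methods another. The files hold 32285 genes, of which 32158 were matched to a symbol. Of 2 count tables per genotype, run 1 gave the values (77916082 UMIs in PEP-WT, 56745578 in PEP-619WW) and run 2 is an alternative. No further filter on cells was applied and no doublet caller was run.

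UMIs were summed over members of a library and divided by the UMIs outside the 4 globins. A gene was called past a 2-fold ratio whose exact conditional 95% interval left out no change, given at least 100 UMIs over both libraries. On simulated counts, 95.5% of 3-fold changes were called and 96.1% of intervals held the true value. The simulated counts had Poisson error only and no differences between barcodes, so this does not cover genes carried by few barcodes. Named genes were the 20 highest in members, the 12 with the largest ratio to other barcodes in both libraries, and between genotypes the 12 furthest in each direction. Members, lists and rules were chosen with earlier results of these data known. Alternatives changed the globin limit, the *Cd3e* and *Cd79a* condition, depth, denominator, UMI limit and run. *Hbb-bh0* and *Ahsp*, members of the lists, were not analysed here. Some genes that these rules name are not reported here. Coordinates are from GENCODE vM21 on GRCm38. Python 3.11.15 with numpy 2.4.6 and scipy 1.17.1 was used.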

Additional observations from a re-analysis of the deposited data

Results flagged for a closer look

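The same rule applied to run 2 found 90 members among 9539 PEP-WT barcodes (0.943%, exact binomial interval 0.759 to 1.16%) and 1 among 11029 in PEP-619WW, in counts that the report's comparisons do not use. The PEP-WT members of run 2 had a median of 84.5% globin and 2076.5 UMIs. *Alas2* stood at 3589 CPM outside globin and at 0.512 in the other barcodes of that run, and *Bpgm* at 2953 and 7.20. *Isg15* stood at 277 (162 to 444) and at 126 in the other barcodes, *Rsad2* at 685 (494 to 926) and 90.9, and *Apol11b* at 65.3 (17.8 to 167) and 0. In run 1 PEP-WT members these genes stood at 8300, 4901 and 6346. *Tmsb4x* stood at 21387 in members and 20151 in the other barcodes of run 2, and *Lyz2*, of the macrophage list, at 3850 and 5769. The 4 PEP-WT members of run 2 with the most UMIs outside globin held 39.8% of these UMIs. No barcode of run 2 met the hemoglobin-poor erythroid rule in either genotype, against 171 and 54 in run 1.

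In run 1, 105 PEP-WT barcodes reached 20% globin but held a *Cd3e* UMI (15) or a *Cd79a* UMI (92) and so were left out of the members. They had a median of 37.6% globin, 3137 UMIs and 858 genes. *Alas2* stood at 1348 and *Isg15* at 1539 CPM outside globin, and B cell markers took 0.251% of these UMIs against 0.0126% in members. In PEP-619WW 3 barcodes were left out in the same way, all with *Cd79a*.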

How the results depend on the processing

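No paired analysis was possible because each genotype is 1 library. The PEP-WT share of members stayed higher in every alternative run. The difference of -3.12 points became -2.63 at 60% globin or more, -3.80 without the *Cd3e* and *Cd79a* condition and -2.72 among barcodes with at least 1000 UMIs. It became -1.69 without members that held a UMI of the T cell, B cell, neutrophil, macrophage, NK cell or dendritic cell lists. UMIs of these lists are called other cell types' UMIs below, and plasma cell markers were not among them. In run 2 the difference was -0.934. That run holds other barcodes, none of them hemoglobin-poor erythroid, and its relation to run 1 is not given. The counts of genes higher and lower in PEP-619WW members, 35 and 71 of 489 compared, became 16 and 45 of 277 at 40% globin or more, 9 and 10 of 187 at 60%, 17 and 45 of 178 without other cell types' UMIs, 7 and 1 of 94 in run 2, where PEP-619WW is 1 barcode with 117 UMIs outside globin and the counts say nothing about processing, 233 and 14 of 489 with all UMIs as the denominator, 89 and 110 of 949 with genes of at least 50 UMIs, and 8 and 30 of 181 with at least 300. Without the *Cd3e* and *Cd79a* condition 85 of 793 were higher and 95 lower. The number of genes compared differs, so the counts are not shares. The log2 ratios of *S100a8* and *S100a9* changed sign to -3.52 and -0.819 at 40% globin or more, to -2.74 and -2.64 without the 5% of members with the most UMIs, and to -4.37 and -3.17 without the 4 PEP-619WW members with the most RNA outside globin and with all PEP-WT members kept, an alternative chosen after seeing the data, which also gave *Retnlg* -3.71 and *S100a6* -1.63. Among ratios of single named genes, all 6 at 60% globin or more and both without other cell types' UMIs moved outside their main interval, as did 15 of 24 with all UMIs as the denominator and 11 of 24 without the *Cd3e* and *Cd79a* condition, while all 24 stayed inside it among barcodes with at least 1000 UMIs. With 25 PEP-619WW members in 1 library, differences between cells or pools of mice are not in any interval.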
